A study of Rattus norvegicus with 24 samples.

Results

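Triglyceride synthesis genes were examined in the medial gastrocnemius, a calf muscle rich in fast-twitch fibres, of 24 male Wistar rats in which cardiac cachexia, the wasting that accompanies heart failure, was modelled. The genes were Acsl1, Gpam, Agpat2, Agpat3, Lpin1, Dgat1 and Dgat2, taken from the deposited gene count table by symbol, and all 7 were present among its 10851 genes. They were listed by their place in the pathway, with results for muscle lipid genes in these rats already known, so their joint direction is not independent evidence. The control sedentary group (Sed) received saline and stayed untrained, the control exercise group (Ex) received saline and ran on a treadmill, the cardiac cachexia sedentary group (CC-Sed) received a single injection of monocrotaline, and the cardiac cachexia exercise group (CC-Ex) received monocrotaline and ran on the treadmill. Each group had 6 rats, and age is not given in the sources used here. Monocrotaline injures the lung vessels and so loads the right heart, which means that muscle was reached through heart failure and any other action of the compound together. Some monocrotaline rats died or were left out of the study, so the CC groups hold survivors.

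Triglyceride is the storage form of fatty acids, held in muscle fibres as lipid droplets. A fatty acid is first joined to coenzyme A, an activation carried out by long-chain acyl-CoA synthetases such as Acsl1. Gpam places the first acyl chain on glycerol-3-phosphate at the outer mitochondrial membrane, and the acylglycerolphosphate acyltransferases, Agpat2 and Agpat3 here, add the second to give phosphatidic acid. Lpin1, lipin 1, removes the phosphate to give diacylglycerol and also acts in the nucleus as a coactivator of lipid oxidation genes. Dgat1 and Dgat2, unrelated in sequence, add the last chain. Oxidative muscle fibres hold more of these droplets than fast glycolytic fibres.

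In sedentary rats, both enzymes of the last step were higher with monocrotaline. Dgat2 rose 2.95-fold and Dgat1 1.45-fold in CC-Sed. Between Ex and CC-Ex edgeR called none of the 7 genes, while DESeq2 called Lpin1 higher and limma-voom Agpat3 lower, and between CC-Sed and CC-Ex or between Sed and Ex none of the 3 tools made a call. The difference between the responses of trained and untrained rats passed for none of the genes in any of these tools. Over all 12 monocrotaline and 12 saline rats, Lpin1 was also higher, by 2.31-fold. From rat to rat, the levels of Agpat2, Gpam and Acsl1 followed the transcripts of slow-twitch fibres, and those of Dgat2 followed them less closely.

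The sequences around the starts of 4 of the genes are shown because Acsl1, Gpam and Agpat2 varied together from rat to rat while Lpin1 varied apart from them. RefSeq promoters (build GRCr8, 250 bases before to 50 after the gene start) matched 5 of the 7 symbols, all but Dgat1 and Dgat2. The 4 shown lie on the minus strand, at chr16:52532343-52532642 for Acsl1, chr1:264175862-264176161 for Gpam, chr3:29826108-29826407 for Agpat2 and chr6:45108893-45109192 for Lpin1. Capitals mark matches on either strand to the CCAAT box (CCAAT), the GC box (GGGCGG) or the glucocorticoid receptor core element (AGAACA).
Acsl1: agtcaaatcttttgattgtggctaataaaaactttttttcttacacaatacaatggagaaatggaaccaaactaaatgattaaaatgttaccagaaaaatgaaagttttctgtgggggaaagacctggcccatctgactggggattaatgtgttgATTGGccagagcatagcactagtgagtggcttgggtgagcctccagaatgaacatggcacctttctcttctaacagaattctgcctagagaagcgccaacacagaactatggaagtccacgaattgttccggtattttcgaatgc
Gpam: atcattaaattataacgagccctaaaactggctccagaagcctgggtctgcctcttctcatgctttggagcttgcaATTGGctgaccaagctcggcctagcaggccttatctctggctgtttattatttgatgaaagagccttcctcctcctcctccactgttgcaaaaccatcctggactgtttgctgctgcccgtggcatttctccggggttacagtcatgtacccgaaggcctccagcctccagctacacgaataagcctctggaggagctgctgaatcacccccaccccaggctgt
Agpat2: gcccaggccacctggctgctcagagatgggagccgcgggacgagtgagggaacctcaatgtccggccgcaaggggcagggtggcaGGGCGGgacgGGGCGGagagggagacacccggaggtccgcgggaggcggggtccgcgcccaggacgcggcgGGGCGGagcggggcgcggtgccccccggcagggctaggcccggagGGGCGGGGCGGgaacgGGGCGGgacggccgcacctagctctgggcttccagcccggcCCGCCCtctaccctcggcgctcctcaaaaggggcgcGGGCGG
Lpin1: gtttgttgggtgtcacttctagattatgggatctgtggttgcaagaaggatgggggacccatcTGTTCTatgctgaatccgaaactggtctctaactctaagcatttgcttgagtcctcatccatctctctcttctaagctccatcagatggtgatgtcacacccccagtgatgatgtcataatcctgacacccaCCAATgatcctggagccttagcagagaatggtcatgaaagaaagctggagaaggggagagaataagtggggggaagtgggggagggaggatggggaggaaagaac
Agpat2 stood apart in composition, with 78.3% G and C against a median of 51.7% over all 33469 promoters, and held 8 GC box matches, a neighbouring pair of which overlap by a base. A GC box was found in 33.1% of all promoters and in none of the other 4 matched genes. Acsl1, Gpam and Lpin1 each held 1 CCAAT match, as did 37.5% of all promoters, and Lpin1 held 1 AGAACA match, found in 20.7%. Agpat3, not printed, held 1 nuclear receptor element (AGGTCA), found in 16.2%. The SREBP letters TCACNCCAC (1.12% of all promoters), the FOXO letters TGTTTAC (3.78%) and TATAAA (14.2%) were in none of the 5 windows. The E-box CANNTG, not set in capitals, was in all 5, as in 72.1% of promoters, and overlapped the CCAAT match of Gpam and the AGAACA match of Lpin1. These windows are of another build than the count table, and a match describes letters only.

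Library totals ran from 37816239 to 50350554 estimated counts. Levels are given as CPM, counts scaled to library size with TMM factors, which are not adjusted for transcript length, so that each gene is compared with itself only. Tests were edgeR quasi-likelihood tests over 10851 genes and 4 groups, called at a Benjamini-Hochberg adjusted p under 0.05, and Log2FC is the second group minus the first. All 5 skeletal muscle markers were present, at a summed 49804 to 104400 CPM. Of the adipocyte markers 3 of 7 were present (Adipoq, Fabp4 and Cfd), with summed medians of 129, 138, 121 and 129 CPM in the order Sed, Ex, CC-Sed and CC-Ex. Most of that sum was Fabp4, with medians from 106 to 119 CPM, while the medians of Adipoq were 6.12, 19.1, 3.96 and 4.91 and those of Cfd 4.41, 21.2, 5.31 and 4.99 CPM. The median Log2FC of the 3 was -0.70 for Sed vs. CC-Sed, -1.16 for Ex vs. CC-Ex and -0.99 for the pooled CC effect, where Adipoq was called lower (-1.09, SE 0.40, edgeR adjusted p 0.0451). Their part in the results was not tested, and Plin1, Cidec, Lep and Retn had no row in the table. In whole muscle, fewer fibres of a type and less RNA per fibre cannot be told apart.

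Counted together, 2 of the 7 genes were called for Sed vs. CC-Sed, both higher, where 6.46% of all genes were called and 4.3% were called higher. There limma-voom called Lpin1 as well, among 2474 of the 10851 genes. For Ex vs. CC-Ex edgeR called 0 of 7, with 1 (Lpin1) at an unadjusted p under 0.05, against 0.995% and 22.6% of all genes. In that comparison DESeq2 called 1 (Lpin1), among 685 of the 10851 genes, and limma-voom 1 (Agpat3, lower), among 1043. For the pooled CC effect 3 of 7 were called, all higher, where 27.8% of all genes were called and 17.2% called higher, so that a large share of the table moved there. With the study's added minimum of 1 for the size of Log2FC, the edgeR call was Dgat2 alone, 1 of 7, for Sed vs. CC-Sed (1.87% of all genes) and Lpin1 alone for the pooled CC effect (2.88%). The study applied that minimum to DESeq2 and listed Gpam and Agpat2 as upregulated in sedentary rats besides Dgat2. Here neither Gpam nor Agpat2 was called for Sed vs. CC-Sed by DESeq2 or by any other fit tried. The median Log2FC of the 7 was 0.88 for Sed vs. CC-Sed and 0.12 for Ex vs. CC-Ex, beside 0.02 and 0.01 over all genes. The same 4 groups enter these comparisons, so the values are set side by side only.

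**Figure D1:**
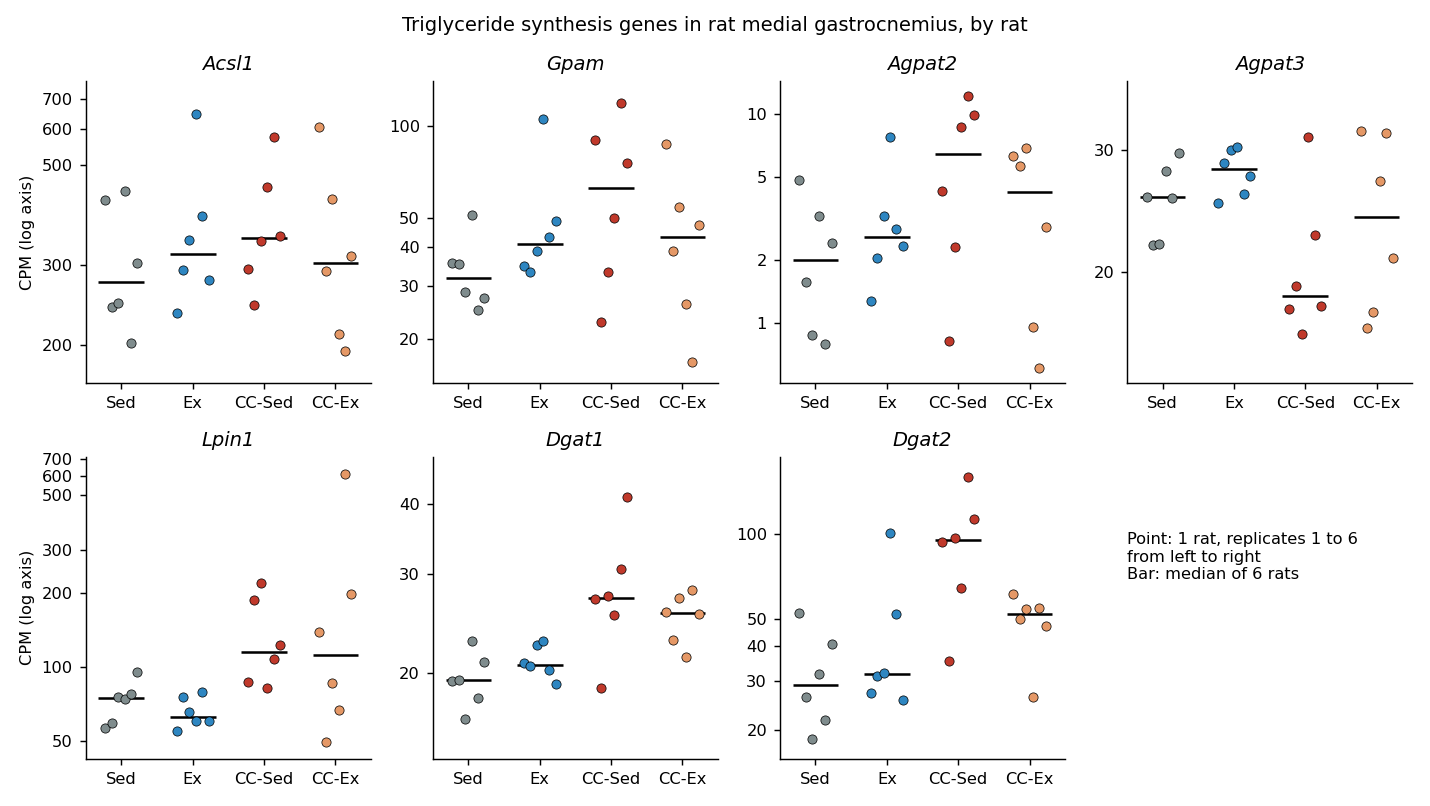
CPM (log axis, its range set for each gene) of the 7 genes in each of the 24 rats, by group, with a bar at the median of 6 rats. Dgat2 lies between 18.6 and 52.3 CPM in Sed and between 35.5 and 160.35 in CC-Sed, and CC-Ex replicate 5 stands alone for Lpin1 at 607 CPM.

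Dgat2 (ENSRNOG00000016573), an endoplasmic reticulum and lipid droplet enzyme, ranged from 18.6 to 52.3 CPM in Sed with a median of 28.96. In CC-Sed it ranged from 35.5 to 160.35 CPM with a median of 95.4. All 6 CC-Sed rats lay above the Sed median and 5 of 6 above the highest Sed rat. The Log2FC was 1.56 (SE 0.36, n = 6 per group) with an edgeR adjusted p of 0.016. In Ex, Dgat2 ranged from 25.7 to 101 CPM (median 31.7), and in CC-Ex from 26.3 to 61.1 (median 52.1). Of the CC-Ex rats 5 of 6 lay above the Ex median, yet each lay inside the Ex range, below its highest rat, replicate 4. The Log2FC for Ex vs. CC-Ex was 0.12 (SE 0.35, edgeR adjusted p 0.843), and it was 0.54 without that rat, still not called (edgeR adjusted p 0.332).

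The difference of the Dgat2 responses in trained and sedentary rats was then tested itself. The interaction was -1.44 on the log2 scale (SE 0.50), with 2 standard errors reaching from -2.43 to -0.45. Its unadjusted edgeR p was 0.00806 and its edgeR adjusted p 0.99958, so it did not pass over the whole table. The same held between CC-Sed and CC-Ex, where all 6 CC-Ex rats lay below the CC-Sed median and the Log2FC was -0.94 (SE 0.35, unadjusted edgeR p 0.0132, adjusted p 0.99994). These comparisons share groups with the one in sedentary rats and are not independent of it. The study also measured Dgat2 by RT-qPCR, in an analysis of variance of that gene alone. It reported a significant interaction there, with a difference between CC-Sed and CC-Ex.

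Dgat1 (ENSRNOG00000028711), the endoplasmic reticulum enzyme of the same step, varied least among Sed and Ex rats. It ranged from 16.6 to 22.8 CPM in Sed (median 19.4), from 19.1 to 22.8 in Ex (median 20.7), from 18.8 to 41.1 in CC-Sed (median 27.3) and from 21.4 to 28.1 in CC-Ex (median 25.6). Of the CC-Sed rats 5 of 6 exceeded the highest Sed rat, and replicate 2 fell inside the Sed range. The Log2FC was 0.54 (SE 0.13, edgeR adjusted p 0.0188) in sedentary rats. This call was lost when Sed replicate 3 (edgeR adjusted p 0.0514) or CC-Sed replicate 6 (edgeR adjusted p 0.0622) was dropped. It held in 22 of the 24 fits that each left out a single rat. In trained rats 5 of 6 CC-Ex rats exceeded the highest Ex rat, with a Log2FC of 0.26 (SE 0.13, edgeR adjusted p 0.227). The interaction of -0.28 (SE 0.18, unadjusted edgeR p 0.13) was within error of 0. Over all rats, 10 of 12 monocrotaline rats exceeded the highest saline rat, and Dgat1 rose by 0.40 on the log2 scale (SE 0.09, edgeR adjusted p 0.00407).

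The balance of these enzymes was described within each rat as the ratio of Dgat2 to Dgat1 CPM, which carries the fixed length difference of the transcripts. The ratio ranged from 1.12 to 2.70 in Sed (median 1.37), from 1.31 to 4.42 in Ex (median 1.48), from 1.89 to 5.23 in CC-Sed (median 3.11) and from 1.23 to 2.37 in CC-Ex (median 1.97). The CC-Sed median was the highest of the 4, and the ranges overlapped. No test was run on the ratio.

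Lpin1 (ENSRNOG00000004377) was even among saline rats and uneven among monocrotaline rats. It ranged from 56.4 to 95.0 CPM in Sed (median 74.8), from 55.0 to 79.1 in Ex (median 62.7), from 81.9 to 220.4 in CC-Sed (median 115) and from 49.7 to 607 in CC-Ex (median 112.2). All 6 CC-Sed rats lay above the Sed median, and CC-Ex held both the lowest and the highest rat of the study. Over 12 against 12 rats Lpin1 rose by 1.21 on the log2 scale (SE 0.30, edgeR adjusted p 0.00718). Without CC-Ex replicate 5, the rat at 607 CPM, the value was 0.78 and still called (edgeR adjusted p 0.00921). That library also lay at 96.5 on the main axis of the whole table, which carried 39.7% of the variance, and the next highest library lay at 51.7.

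Split by training, edgeR did not call Lpin1. The Log2FC was 0.88 (SE 0.42, edgeR adjusted p 0.175) for Sed vs. CC-Sed and 1.54 (SE 0.43, edgeR adjusted p 0.068) for Ex vs. CC-Ex. DESeq2 called it for Ex vs. CC-Ex (1.54, DESeq2 adjusted p 0.0111), and limma-voom for Sed vs. CC-Sed (0.94, limma-voom adjusted p 0.03). In edgeR the value in trained rats was 0.70 (edgeR adjusted p 0.288) without CC-Ex replicate 5, and it passed without CC-Ex replicate 1 (1.61, edgeR adjusted p 0.045) or CC-Ex replicate 4 (1.71, edgeR adjusted p 0.0211). The value in sedentary rats passed without CC-Ex replicate 5 (0.86, edgeR adjusted p 0.036), a library that enters it only through the shared estimate of spread, and in a fit of the 12 sedentary rats alone (0.87, edgeR adjusted p 0.0456). The interaction of 0.66 (SE 0.60) turned to -0.16 without CC-Ex replicate 5.

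**Figure D2:**
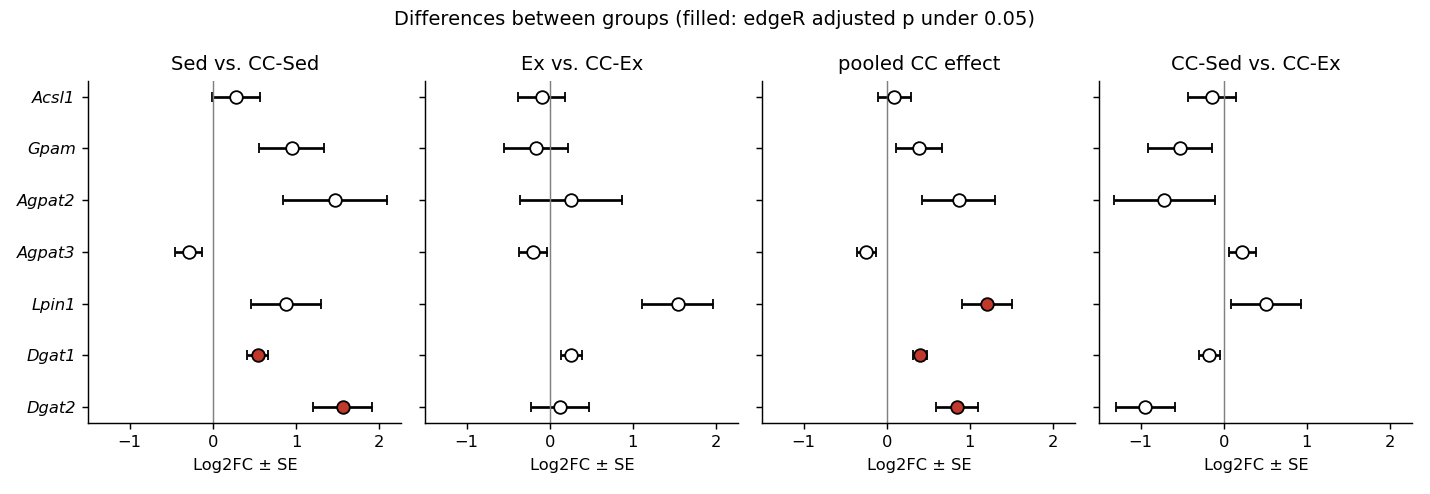
Log2FC with SE bars for the 7 genes in 4 comparisons, with filled points at an edgeR adjusted p under 0.05. Filled points are Dgat1 and Dgat2 for Sed vs. CC-Sed and Lpin1, Dgat1 and Dgat2 for the 12 against 12 rats of the pooled CC effect, and the largest value in sedentary rats is 1.56 for Dgat2.

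Agpat2 (ENSRNOG00000019466), the acyltransferase whose loss causes generalised lipodystrophy, had the lowest counts of the 7, from 26 to 487 in a rat. It ranged from 0.799 to 4.83 CPM in Sed (median 2.00), from 1.28 to 7.77 in Ex (median 2.58), from 0.823 to 12.2 in CC-Sed (median 6.48) and from 0.61 to 6.86 in CC-Ex (median 4.26). The spread within CC-Sed, 14.8-fold from lowest to highest, was wider than any difference between medians, and each group's range overlapped the others. Its Log2FC of 1.47 for Sed vs. CC-Sed was close to that of Dgat2 but carried an SE of 0.63 and an edgeR adjusted p of 0.133. For Ex vs. CC-Ex the Log2FC was 0.26 (SE 0.62, edgeR adjusted p 0.813), and leaving out Ex replicate 4 gave 0.72, while dropping CC-Ex replicate 3 gave 0.016.

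Agpat3 (ENSRNOG00000001205), placed at the same acylation step as Agpat2, had the opposite sign. It ranged from 21.8 to 29.7 CPM in Sed (median 25.6), from 25.2 to 30.3 in Ex (median 28.1), from 16.2 to 31.4 in CC-Sed (median 18.5) and from 16.6 to 31.98 in CC-Ex (median 24.0). Of the CC-Sed rats 4 of 6 lay below the lowest Sed rat, while replicate 4 lay above the highest. The Log2FC was -0.29 (SE 0.17, edgeR adjusted p 0.246) in sedentary, -0.20 (SE 0.17, edgeR adjusted p 0.452) in trained and -0.25 (SE 0.12, edgeR adjusted p 0.112) over all rats. Without CC-Sed replicate 4 it passed in sedentary rats (-0.44, edgeR adjusted p 0.0497) and over all rats (-0.32, edgeR adjusted p 0.0221). With all rats, upper-quartile scaling called it lower in the pooled CC effect (-0.33, edgeR adjusted p 0.0385), as did limma-voom (-0.37, limma-voom adjusted p 0.00696), which also called it for Ex vs. CC-Ex (-0.42, limma-voom adjusted p 0.0485). The ratio of Agpat2 to Agpat3 within a rat had medians of 0.0769 for Sed, 0.0966 for Ex, 0.259 for CC-Sed and 0.167 for CC-Ex, and its ranges overlapped.

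Gpam (ENSRNOG00000015124) ranged from 24.9 to 51.2 CPM in Sed (median 31.9), from 33.1 to 105 in Ex (median 41.2), from 22.8 to 119 in CC-Sed (median 62.8) and from 16.9 to 87.2 in CC-Ex (median 43.2). Of the CC-Sed rats 3 lay above the highest Sed rat and 1 below the lowest. The Log2FC was 0.95 (SE 0.39, unadjusted edgeR p 0.0226, adjusted p 0.119) in sedentary rats and -0.17 (SE 0.38, edgeR adjusted p 0.8) in trained rats. The interaction of -1.12 (SE 0.54) had an unadjusted edgeR p of 0.0517. The value in trained rats turned to 0.18 without Ex replicate 4, the rat at 105 CPM.

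In no comparison was the difference of Acsl1 (ENSRNOG00000010633) larger than its SE. It ranged from 202 to 437 CPM in Sed (median 276), from 236 to 649 in Ex (median 318), from 246 to 576 in CC-Sed (median 344) and from 194 to 608 in CC-Ex (median 303). No group stood clear of another. The Log2FC was 0.28 (SE 0.29, edgeR adjusted p 0.53) in sedentary rats and -0.10 (SE 0.29, edgeR adjusted p 0.848) in trained rats, and the 2 SE interval over all 12 against 12 rats ran from -0.31 to 0.50.

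Training alone gave no call. For Sed vs. Ex edgeR, DESeq2 and limma-voom called 0 of 7 genes and edgeR had 0 at an unadjusted p under 0.05, against 0% and 1.09% of all genes. Gpam had the largest value, a Log2FC of 0.59 (SE 0.39), with all 6 Ex rats above the Sed median and 1 above the highest Sed rat. Without that rat, Ex replicate 4, the value was 0.24. For CC-Sed vs. CC-Ex the 3 tools again called 0 of 7, with 1 (Dgat2) at an unadjusted edgeR p under 0.05, against 0% and 2.16% of all genes. The signs were negative for Acsl1, Gpam, Agpat2, Dgat1 and Dgat2 and positive for Agpat3 and Lpin1, and those of Acsl1, Agpat2 and Lpin1 turned under other fits. For the interaction edgeR, DESeq2 and limma-voom called 0 of 7, with 1 (Dgat2) at an unadjusted edgeR p under 0.05, against 0% and 1.42% of all genes.

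Transcripts of slow-twitch fibres varied among rats, and several of the genes varied with them. A slow-fibre score averaged log2 CPM over the 4 such markers present of 7 listed (Tnnc1, Tnni1, Myl3 and Tpm3), while Myh7, Tnnt1 and Myl2 had no row. Their summed level ranged from 56.8 to 2103 CPM in Sed, 59.9 to 6439 in Ex, 81.0 to 7381 in CC-Sed and 16.9 to 5285 in CC-Ex, and edgeR, DESeq2 and limma-voom called none of the 4 in a comparison, with 0 at an unadjusted edgeR p under 0.05. Their spread was wide beside their differences, since for Sed vs. CC-Sed the Log2FC was 2.01 for Tnnc1 (SE 1.32), 1.64 for Tnni1 (SE 1.24), 1.70 for Myl3 (SE 1.13) and 1.97 for Tpm3 (SE 1.13), with edgeR adjusted p from 0.248 to 0.391. Unlike here, the study listed these 4 genes among its most upregulated in CC-Sed. Group medians of the score were 7.22 for Sed, 8.82 for Ex, 9.71 for CC-Sed and 9.41 for CC-Ex. The 2 lowest scores were those of CC-Ex replicates 4 and 5, at 1.71 and 1.05, and Ex replicate 4 had the highest score of its group at 10.5.

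With group means removed, Agpat2 followed the slow-fibre score over 24 rats with Pearson's r = 0.92 and Spearman's rho = 0.89 (permutation adjusted p 0.00014 and 9.33e-05). The r was 0.88 without the 2 rats farthest from the median Agpat2 level and between 0.81 (Ex) and 0.97 (CC-Ex) within the groups. For Acsl1 r was 0.79 and rho 0.82 (permutation adjusted p 0.00052 and 9.33e-05, r = 0.81 without the 2 farthest), and for Gpam r was 0.76 and rho 0.78 (permutation adjusted p 0.00028 and 0.00035, r = 0.72 without the 2 farthest). Dgat2 followed it less closely, with r = 0.59 and rho = 0.54 (permutation adjusted p 0.00336 and 0.00963, r = 0.51 without the 2 farthest). The rats fell into a cloud of 17 with scores above 7 and a looser one of 7 below. With group means kept, r within the 17 rats was 0.84 for Agpat2, 0.55 for Acsl1, 0.75 for Gpam and 0.41 for Dgat2. Within the 7 it was 0.68, 0.75, 0.70 and -0.53. Those 7 rats come from every group, so group differences enter these values. Whether the Dgat2 relation held below the score of 7 was not tested.

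The other 3 genes showed no such relation past the test. For Dgat1 r was 0.41 and rho 0.39 (permutation adjusted p 0.0881 and 0.146, r = 0.34 without the 2 farthest). For Lpin1 r was -0.39 and rho -0.30 (permutation adjusted p 0.342 and 0.391), and r was -0.02 without the 2 farthest rats. For Agpat3 r was -0.05 and rho 0.01 (permutation adjusted p 0.896 and 0.975, r = -0.06 without the 2 farthest).

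With the slow-fibre score as a covariate, the Sed vs. CC-Sed Log2FC of Agpat2 was 0.61 in place of 1.47, that of Gpam 0.45 in place of 0.95 and that of Acsl1 0.01 in place of 0.28. Dgat2 kept 1.32 (edgeR adjusted p 0.0172) and Dgat1 0.48 (edgeR adjusted p 0.0238), and both were still called. Lpin1 was 1.06 (edgeR adjusted p 0.0612). Over 12 against 12 rats Lpin1, Dgat1 and Dgat2 were called with the covariate as without it, at 1.11, 0.39 and 0.83.

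**Figure D3:**
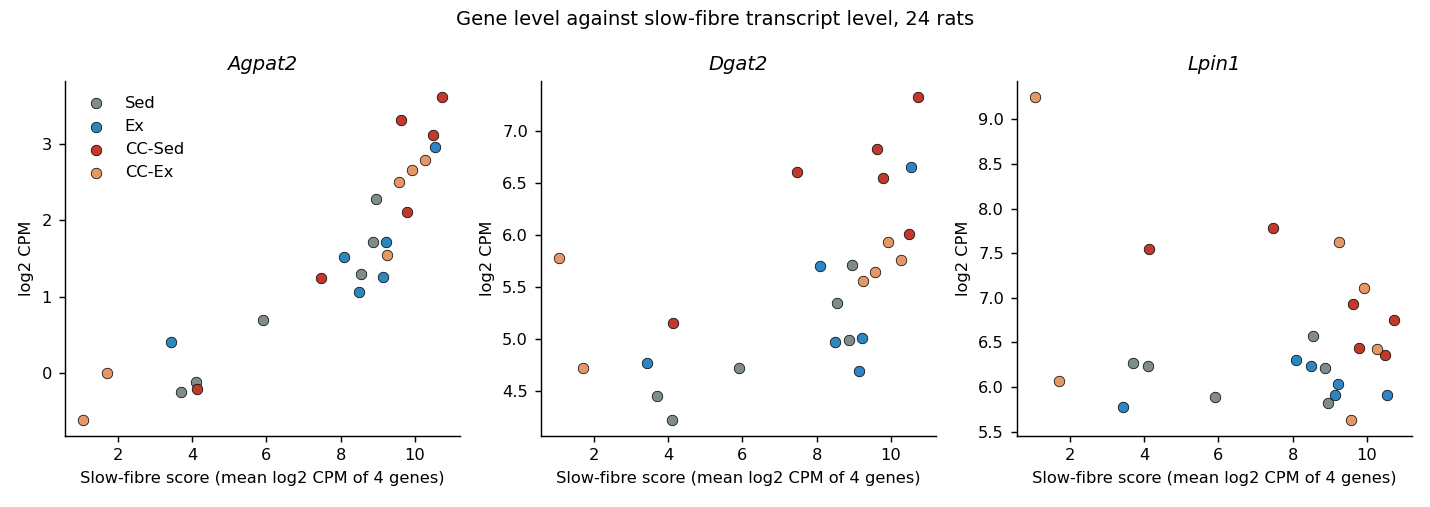
Log2 CPM of Agpat2, Dgat2 and Lpin1 against the slow-fibre score (log2 CPM averaged over 4 genes) in 24 rats, coloured by group. Agpat2 follows the score in each group (r of at least 0.81), Dgat2 follows it less closely (r = 0.59), and the Lpin1 point at 607 CPM belongs to the rat with the lowest score, 1.05.

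Among the genes themselves, 28 relations were computed over the 24 rats, counting those with the slow-fibre score, and 12 had a permutation adjusted p under 0.05. Acsl1 and Agpat2 were the closest pair of genes, with r = 0.86 and rho = 0.89 (permutation adjusted p 0.00014 and 9.33e-05, r = 0.86 without the 2 farthest rats). Gpam and Agpat2 had r = 0.83 and rho = 0.82 (permutation adjusted p 0.00028 and 0.000392, r = 0.77 without the 2 farthest), and Acsl1 and Gpam r = 0.79 and rho = 0.72 (permutation adjusted p 0.00028 and 0.00146, r = 0.70). These 3 genes, of the activation step and the acylations that follow, thus varied together, also within the 17 rats above the score of 7 (r = 0.65, 0.72 and 0.64, group means kept).

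Dgat1 and Dgat2 had r = 0.66 and rho = 0.73 (permutation adjusted p 0.00378 and 0.00112, r = 0.64 without the 2 farthest), with r of 0.72 and 0.87 in the rats above and below the score of 7. Dgat2 also varied with Acsl1 (r = 0.72, rho = 0.68, permutation adjusted p 0.000513 and 0.00144, r = 0.66 without the 2 farthest), with r of 0.47 above the score of 7 and -0.44 below it. Dgat2 with Agpat2 had r = 0.71 and rho = 0.72 (permutation adjusted p 0.000595 and 0.00112, r = 0.76 without the 2 farthest), and with Gpam r = 0.65 and rho = 0.56 (permutation adjusted p 0.00494 and 0.0165, r = 0.46 without the 2 farthest). Below the score of 7 these were -0.44 and -0.70. All r values given here above or below that score kept group means, so group differences enter them. Whether a relation held in those rats was not tested. Agpat2 and Dgat1 had r = 0.55 and rho = 0.53 (permutation adjusted p 0.04 and 0.0377, r = 0.56 without the 2 farthest), with r of 0.62 above the score of 7 and -0.34 below it. Lpin1 and Agpat3 had no relation past the test with any other gene of the pathway. The smallest p that the 100000 permutations can give is 1e-05.

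**Figure D4:**
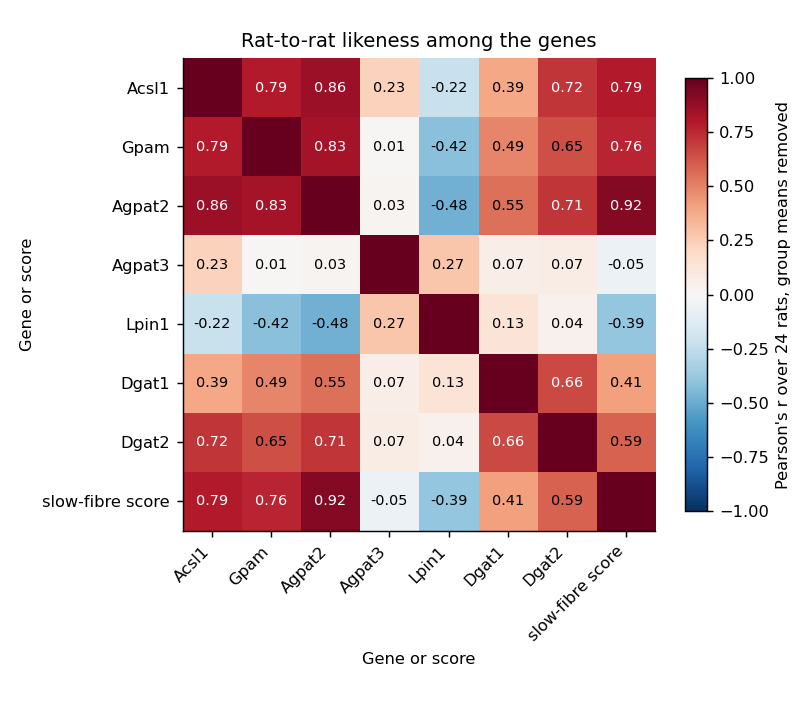
Pearson's r over 24 rats, group means removed, among the 7 genes and the slow-fibre score, with both axes listing the genes and the score. Acsl1, Gpam and Agpat2 form the warm block with r of 0.79 to 0.86, and Lpin1 and Agpat3 lie outside it.

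The 3 genes of the whole table most alike to each member were found by Pearson's r of log2 CPM over the 24 rats, as a description. Agpat2 was most like Lpl (r = 0.96), lipoprotein lipase, which frees fatty acids from circulating triglyceride, followed by Npr2 and Ccdc8 (0.95 and 0.94). Acsl1 was most like Slc25a20 (0.94), the mitochondrial carnitine-acylcarnitine carrier, then Eci2 and Cpt2 (0.91 and 0.91), and Dgat2 was most like Ech1 (0.90), a peroxisomal and mitochondrial enzyme of unsaturated fatty acid oxidation, then Acadl and Tmem63b (0.89 and 0.88). Gpam was most like Acot2 (0.88), a mitochondrial acyl-CoA thioesterase, Ccdc8 and Slc25a22 (0.86 and 0.86). Dgat1 was most like Bckdha, Hnrnpa1 and Cpt1b (0.89, 0.89 and 0.89), the last being the muscle enzyme that commits acyl-CoA to mitochondria. Lpin1 was most like Pex13, a peroxisomal import protein, Nup62 and Gpr157 (0.92, 0.92 and 0.90), and Agpat3 like Aimp2, Faap100 and Naa20 (0.86, 0.83 and 0.83).

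The other genes of the pathway are set beside the shares of all genes called by edgeR, 6.46% for Sed vs. CC-Sed, 0.995% for Ex vs. CC-Ex and 27.8% for the pooled CC effect. Of 9 other acyltransferases and phosphatases of the pathway present of 13 listed, 0 were called by edgeR for Sed vs. CC-Sed or Ex vs. CC-Ex, with median Log2FC of 0.19 and 0.12, and 1 was called higher and 1 lower in the pooled CC effect. Of 7 acyl-CoA ligases and precursor genes, 1 was called for Sed vs. CC-Sed, and 2 higher and 1 lower in the pooled CC effect. The call in sedentary rats was Gpd1l, a homologue of the enzyme that makes glycerol-3-phosphate, which ranged from 83.4 to 97.2 CPM in Sed and 83.4 to 201.6 in CC-Sed (Log2FC 0.60, SE 0.15, edgeR adjusted p 0.0274). Gpd1, the enzyme itself, had the opposite sign, from 809 to 1335 CPM in Sed (median 975) and from 92.6 to 1038 in CC-Sed (median 567), and was not called (Log2FC -0.99, SE 0.47, edgeR adjusted p 0.167).

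On the storage and release side, Plin4 separated monocrotaline from saline rats. Of 8 lipid droplet assembly genes, 1 was called for Sed vs. CC-Sed and for Ex vs. CC-Ex, Plin4, a coat protein of lipid droplets. In the pooled CC effect 1 was called higher and 1 lower, the latter being Bscl2, seipin, which shapes nascent droplets (Log2FC -0.39, SE 0.09, edgeR adjusted p 0.00407). Plin4 ranged from 132 to 340.5 CPM in Sed, 204 to 316 in Ex, 443 to 768 in CC-Sed and 347 to 659 in CC-Ex, and neither pair of groups overlapped, as was the case for 3.61% of all genes in sedentary and 1.08% in trained rats. Its Log2FC was 1.20 (SE 0.21, edgeR adjusted p 0.00479) in sedentary and 0.90 (SE 0.21, edgeR adjusted p 0.0409) in trained rats. Of 4 lipolysis genes, 1 was called in sedentary rats, Pnpla2, the lipase that starts triglyceride breakdown (Log2FC 2.15, SE 0.44, edgeR adjusted p 0.012), from 60.9 to 153 CPM in Sed to 163 to 721 in CC-Sed.

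Diacylglycerol can also go to phospholipid. Of 13 genes of that branch, edgeR called 2 in sedentary rats, the choline kinases Chka (Log2FC 1.53, SE 0.35, edgeR adjusted p 0.0164) and Chkb (Log2FC 0.71, SE 0.18, edgeR adjusted p 0.0225), and 0 in trained rats. Of 7 fatty acid synthesis genes, 1 was called in sedentary rats, Acacb, the acetyl-CoA carboxylase whose product restrains fatty acid entry into mitochondria (Log2FC 0.75, SE 0.15, edgeR adjusted p 0.00796). Of 17 transcriptional regulators of lipid genes, 1 was called in sedentary rats, Ppard, a fatty acid receptor of oxidative muscle (Log2FC 0.73, SE 0.18, edgeR adjusted p 0.021). In trained rats Pnpla2, Chka and Ppard had Log2FC of 1.55, 1.34 and 0.67 (edgeR adjusted p 0.0682, 0.0586 and 0.0616) and were not called, and Plin4 was the only gene of the 14 lists that edgeR called there. For the same rats DESeq2 called 1 of 4 lipolysis, 2 of 13 phospholipid, 3 of 17 regulator and 1 of 8 droplet assembly genes higher. It called 1 droplet assembly gene and 1 of 7 fatty acid synthesis genes lower. By limma-voom 1 droplet assembly gene, 1 phospholipid gene, 2 regulators, 1 endothelial and 3 erythroid markers were called higher. It called 1 acyl-CoA ligase or precursor gene lower. Both tools also called more of the whole table there than edgeR.

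Markers of other cells were counted beside these results. No skeletal muscle, slow-fibre, fast-fibre or leukocyte marker was called by edgeR in a comparison, while in the pooled CC effect DESeq2 and limma-voom each called 1 of 5 skeletal muscle markers higher and limma-voom 2 of 6 fast-fibre markers lower. By edgeR, in the pooled CC effect 1 of 3 adipocyte markers was called lower, 1 of 4 endothelial markers higher and 2 of 3 erythroid markers higher. Each tool called a large share of all genes in that effect, 27.8% by edgeR, so these few marker calls are set beside it only. Summed erythroid markers had medians of 115 CPM for Sed, 151 for Ex, 119 for CC-Sed and 318 for CC-Ex, and summed fast-fibre markers 130930 CPM for Sed and Ex alike, 88784 for CC-Sed and 132930 for CC-Ex. The part of fibre type or of other cells in the Dgat1, Dgat2 and Lpin1 results was not tested beyond the fit with the slow-fibre score.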

How the data were processed

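RNA from the left medial gastrocnemius of 24 rats was sequenced from poly-A selected, stranded libraries, with RNA integrity numbers above 8. Per the labels and the study's methods, the authors trimmed reads with Trim Galore, quantified them with Salmon on the Ensembl mRatBN7.2 transcriptome and summed them to genes with tximport, and deposited 1 table of estimated counts per gene that are whole numbers in the file. The lowest value in the table is 10, and all its 10851 genes were used. Groups came from the sample titles.

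Counts were fitted in edgeR 4.0.16 (R 4.3.3) with TMM scaling, filterByExpr, which kept all 10851 genes, and the quasi-likelihood test on 4 group means over all 24 rats, 6 a group. P-values were adjusted by the Benjamini-Hochberg method over all genes, with a gene called at an adjusted p under 0.05. The estimated counts were already whole. Comparisons were monocrotaline against saline in untrained rats, in trained rats and over both (the pooled CC effect), training with and without monocrotaline, and the interaction, the monocrotaline difference of trained rats less that of untrained rats. Alternatives were DESeq2 1.42.0 (the study used DESeq2 1.44.0), limma 3.58.1 with voom and sample weights, upper-quartile scaling, no filter, at least 50 counts in every rat, the 12 rats of a comparison, replicate number as a block, library number or slow-fibre score as covariate, a Log2FC minimum of 1, and each rat left out. Log2 CPM used a prior count of 2. Correlations were taken after removal of group means, with 100000 permutations within groups. Group means were kept for r in rats above or below the slow-fibre score of 7 and for the genes most alike to each member. On data simulated for Sed vs. CC-Sed over 10851 genes, edgeR recovered 73 of 100 genes changed 2-fold and 96 of 100 changed 4-fold, with 8 false calls.

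The genes, the 14 pathway and marker lists and the tests were chosen with earlier results of these data known. All 7 genes were named, along with list genes called between saline and monocrotaline rats of like training or between the CC groups, at most 8 a list. The closest pair of libraries gave 28.1 as chi-square over its degrees of freedom, so none was a repeat of another. At 37816239 to 50350554 counts a library, Agpat2, at 26 to 487 counts, was the least precisely counted of the 7 genes. Rats were housed in pairs, and cages were not given in the labels, so cage mates were treated as independent.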

Additional observations from a re-analysis of the deposited data

Results flagged for a closer look

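Each of 28 sets of 6 values (7 genes in 4 groups) was checked for a rat whose gap to its nearest neighbour, as a share of the group's range, passed Dixon's critical value at 95%. This held for 5 values, all of Ex replicate 4 or CC-Ex replicate 5. Chance gives about 1 in 20 for a single set, but the sets share rats and are not separate draws. Ex replicate 4 was the highest of its group for 4 genes, with Acsl1 at 649 CPM (next 385), Gpam at 105 CPM (next 49.0), Agpat2 at 7.77 CPM (next 3.25) and Dgat2 at 101 CPM (next 51.9). The same rat had the highest slow-fibre score of its group, 10.5, and these genes share that rat, so the 4 values are not separate events. CC-Ex replicate 5 was the highest of its group for Lpin1 at 607 CPM (next 197). It had the lowest slow-fibre score of all rats, 1.05, and the lowest CC-Ex level of Acsl1, Gpam and Agpat2 (194, 16.9 and 0.61 CPM).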

How the results depend on the processing

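Of 1408 Log2FC values under the alternatives, 1368 kept their direction and side of the threshold, 2 lost a call, 13 gained 1 and 25 turned sign. With a Log2FC minimum of 1, the 7 genes gave 1 call for Sed vs. CC-Sed and 1 for the pooled CC effect. For Ex vs. CC-Ex, DESeq2 gave 1 and limma-voom 1. With each rat left out in turn, the calls ranged from 1 to 3 for Sed vs. CC-Sed, 0 to 1 for Ex vs. CC-Ex and 3 to 4 for the pooled CC effect, and stayed at 0 elsewhere. No gene was called in the comparison in which its sign turned. Under limma-voom Acsl1 (0.079) and Gpam (0.18) between Ex and CC-Ex, Agpat2 (0.027) and Lpin1 (-0.49) between the CC groups, and Agpat3 (-0.10) and Lpin1 (-0.45) in the interaction turned. With the slow-fibre score, Acsl1 turned in the trained disease comparison (0.034), between the CC groups (0.058) and in the interaction (0.020), and Lpin1 in Sed vs. Ex (0.051). Without Ex replicate 4 and CC-Ex replicate 5 together, chosen after seeing the data, Acsl1 (0.25) and Gpam (0.33) in Ex vs. CC-Ex, Lpin1 in CC-Sed vs. CC-Ex (-0.30) and the interaction (-0.19), and Acsl1 in Sed vs. Ex (-0.0026) turned. With single rats left out, signs turned within these ranges, for Acsl1 -0.34 to 0.15 between Ex and CC-Ex, -0.39 to 0.021 between the CC groups, -0.0086 to 0.36 in Sed vs. Ex and -0.031 to 0.22 in the pooled CC effect, for Gpam -0.47 to 0.18 in Ex vs. CC-Ex, for Lpin1 -0.30 to 0.71 in CC-Sed vs. CC-Ex and -0.16 to 0.86 in the interaction, and for Agpat3 -0.0051 to 0.24 in the interaction. The replicate number did not pair rats, since the mean correlation of same-numbered rats ran from -0.23 to 0.09 over the pairs of groups, and the fit with a replicate block gave 2, 0, 0, 0, 0 and 3 calls among the 7 genes in the 6 comparisons, as without it. Whole-table counts moved more. For Sed vs. CC-Sed the 701 called genes became 203 with the Log2FC minimum, 1331 with DESeq2, 2474 with limma-voom, 1375 with the slow-fibre score and 2003 without both rats. For Ex vs. CC-Ex the 108 became 57 with the minimum, 685 with DESeq2, 1043 with limma-voom, 23 with upper-quartile scaling, 42 with library number, 2 without both rats, and 1 with the 12 rats alone or the replicate block. The pooled 3017 became 313 with the minimum. With single rats left out the first ran from 173 (without CC-Sed replicate 6) to 2096 (without CC-Ex replicate 5) and the next from 2 to 847. The cause was not tested. Agpat2 gave no value at the minimum of 50 counts in every rat, which it did not reach. No scaling moved the median of all genes by over 0.1.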

Other observations

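Leaving out Ex replicate 4 and CC-Ex replicate 5 together, chosen after seeing the data, gave 3 calls for Sed vs. CC-Sed, Dgat1, Dgat2 and Lpin1, the last at a Log2FC of 0.86 (SE 0.28, edgeR adjusted p 0.0409). In the pooled CC effect Agpat2 then passed as well, at a Log2FC of 1.19 (SE 0.41, edgeR adjusted p 0.0413), beside Lpin1 at 0.76, Dgat1 at 0.37 and Dgat2 at 1.01.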
